A study of Macaca mulatta with 449 samples.

Results

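The nucleus accumbens (ACb) of the rhesus macaque was compared with the dorsal striatum of the same animals, the caudate nucleus (CN) and the putamen (PUT), by RNA sequencing of dissected tissue. The 24 libraries of this comparison, 8 of ACb, 8 of CN and 8 of PUT, were chosen by their labelled sub-region among the 408 libraries of a count table that covers 51 brain sub-regions, in a series of 449 samples. All 8 animals gave one library of each region. They were 4 males (Rhesus 2 and Rhesus 3, both 10 years old, Rhesus 7, 4 years, and Rhesus 8, 3.8 years) and 4 females (Rhesus 4, 3.2 years, Rhesus 6, 10 years, Rhesus 10, 5 years, and Rhesus 11, 9.8 years), and none carried a transgene or received a treatment. Each library stands for a small block of tissue with all of its cell types, taken from total RNA after removal of ribosomal RNA. In such bulk samples fewer cells of a type and less RNA per cell cannot be told apart.

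The striatum is the input nucleus of the basal ganglia. Most of its neurons are GABAergic medium spiny neurons, which receive glutamate from cortex, thalamus, amygdala and hippocampus and dopamine from the midbrain. They fall into a direct pathway, marked by the dopamine receptor DRD1, substance P and dynorphin, and an indirect pathway, marked by DRD2 and enkephalin. The putamen is tied mainly to motor control, the caudate to associative circuits, and the accumbens, at the ventral end where caudate and putamen meet, to reward and motivation. The accumbens is further divided into a core, which resembles the dorsal striatum, and a shell, which shares peptides with the extended amygdala and the hypothalamus. The labels do not separate core from shell.

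Levels are given as CPM, counts scaled to the size of each library, with library sizes adjusted over the 24 libraries by the TMM method. Differences are log2 fold changes ± SE from edgeR's quasi-likelihood test, with ACb set against the summed counts of CN and PUT of the same animal and the animal as a block. A gene passed when its Benjamini-Hochberg adjusted p (FDR) over all genes tested was under 0.05, and a change was called large when it also exceeded 2-fold. Separate contrasts with CN and with PUT came from one fit over the 24 libraries. These contrasts share the ACb samples and are set side by side only as values.

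Total counts per library ran from 7842729 to 12153518. Some libraries stood apart. SLC17A7, the vesicular glutamate transporter of cortical projection neurons, was above 20 CPM in the ACb libraries of Rhesus 7 (28.1 CPM), Rhesus 10 (232 CPM) and Rhesus 11 (60.2 CPM) and in the PUT library of Rhesus 3 (110.4 CPM), against 0.169 to 10.01 CPM in the other 20. The ACb library of Rhesus 2 was the lowest of the 8 ACb libraries for 7 of the 15 genes named below as highest in ACb, and the PUT library of Rhesus 4 was the highest of the 8 PUT libraries for 9 of these 15. For some results that rest on these libraries the values of the animals concerned are given. In the 4 animals without a library above 20 CPM of SLC17A7, 94 of the 158 named genes that had passed no longer did. That fit held fewer samples. The CN libraries differed among themselves too: that of Rhesus 6 was the highest of CN for 8 of the 15 higher genes, and for the 15 lower genes that of Rhesus 3 was the lowest of CN for 9 and that of Rhesus 8 the highest for 8.

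CARTPT and CALCR, the markers given for the accumbens, were higher in ACb than in CN and in PUT in all 8 animals, as the labels have it. CARTPT encodes the CART peptide, a transmitter of the accumbens shell. Its lowest, median and highest levels were 11.5, 42.95 and 86.8 CPM in ACb, 0.5295, 1.76 and 3.48 CPM in CN and 0.239, 0.678 and 2.59 CPM in PUT, so that every ACb library lay above every dorsal library. The difference was 5.01 ± 0.32 on the log2 scale (FDR = 3.9e-06), a 32.3-fold change. CALCR encodes the calcitonin receptor, which forms amylin receptors with RAMP proteins. It reached 3.93, 25.9 and 47.2 CPM in ACb, 0.557, 2.16 and 5.16 CPM in CN and 0, 0.353 and 1.17 CPM in PUT. The ACb library of Rhesus 2, at 3.93 CPM, fell within the range of CN, although it was above the CN library of the same animal (2.68 CPM). The difference for CALCR was 4.28 ± 0.46 (FDR = 6.0e-05). Among the 51 sub-regions, with libraries scaled together, the mean level of CARTPT in ACb ranked 3 and that of CALCR 2, in both cases behind the hypothalamus at rank 1.

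**Figure D1:**
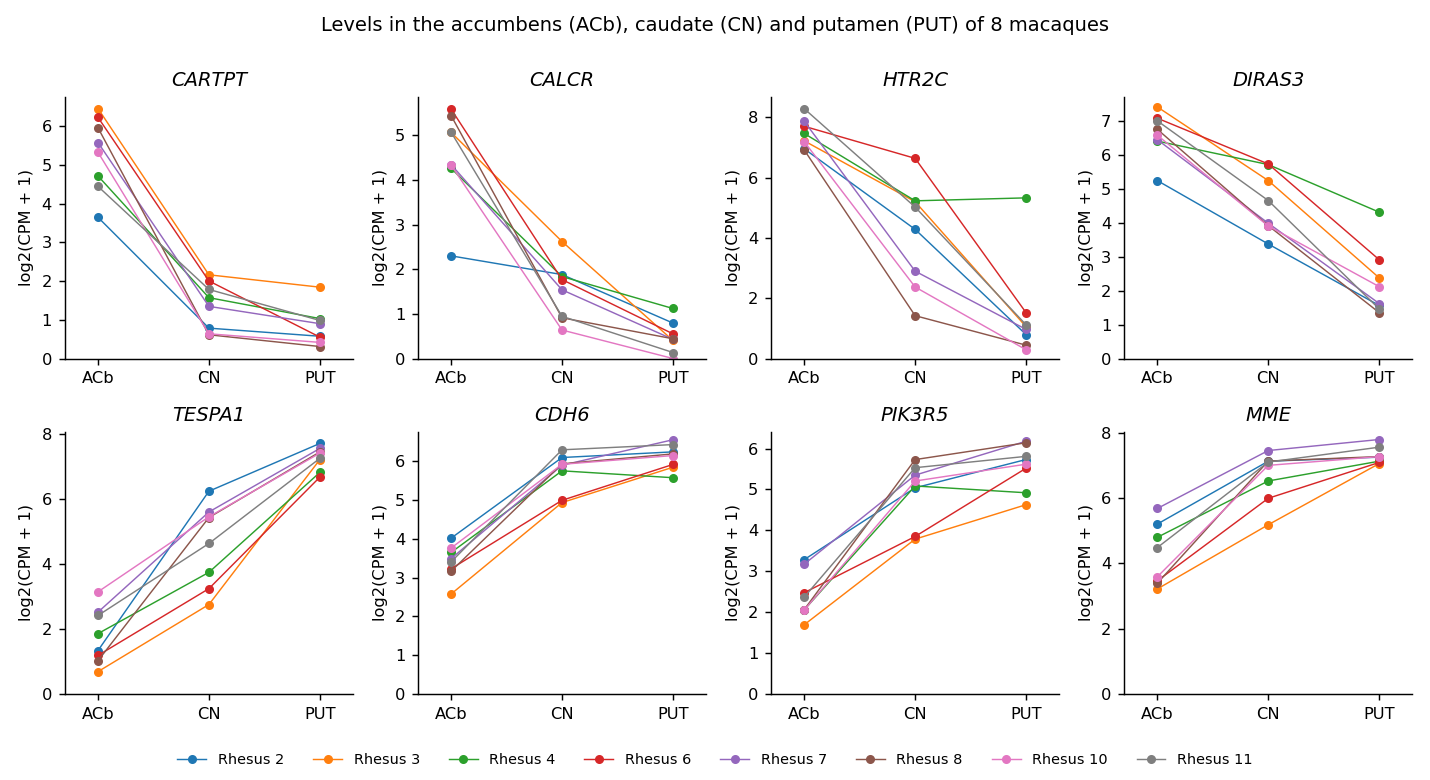
Levels of 4 genes that were higher and 4 that were lower in ACb, as log2(CPM + 1), in the ACb, CN and PUT libraries of each of 8 animals, with 1 line per animal. CARTPT lay above every dorsal library in ACb, CN lay between ACb and PUT for HTR2C, DIRAS3 and TESPA1 in most animals, and Rhesus 4 kept a high HTR2C level of 39.2 CPM in PUT.

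Of 15045 genes tested against the dorsal sum, 2712 passed as higher in ACb (18%) and 2616 as lower (17.4%), and the change was large for 387 (2.57%) and 358 (2.38%). The shares of 18% and 17.4% are those to hold beside the counts of gene lists against the dorsal sum below. The median log2 fold change over all genes tested was -0.0031. Against CN and PUT taken separately, 211 of 14827 genes were at least 2-fold higher in ACb than in each (1.42%) and 151 were lower than in each (1.02%). At any fold, 17.8% of genes passed as higher and 16.6% as lower against CN, and 23% and 22.4% against PUT. In 80 genes (0.532%) every ACb library lay above every dorsal library, and in 61 (0.405%) every ACb library lay below all of them.

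**Figure D2:**
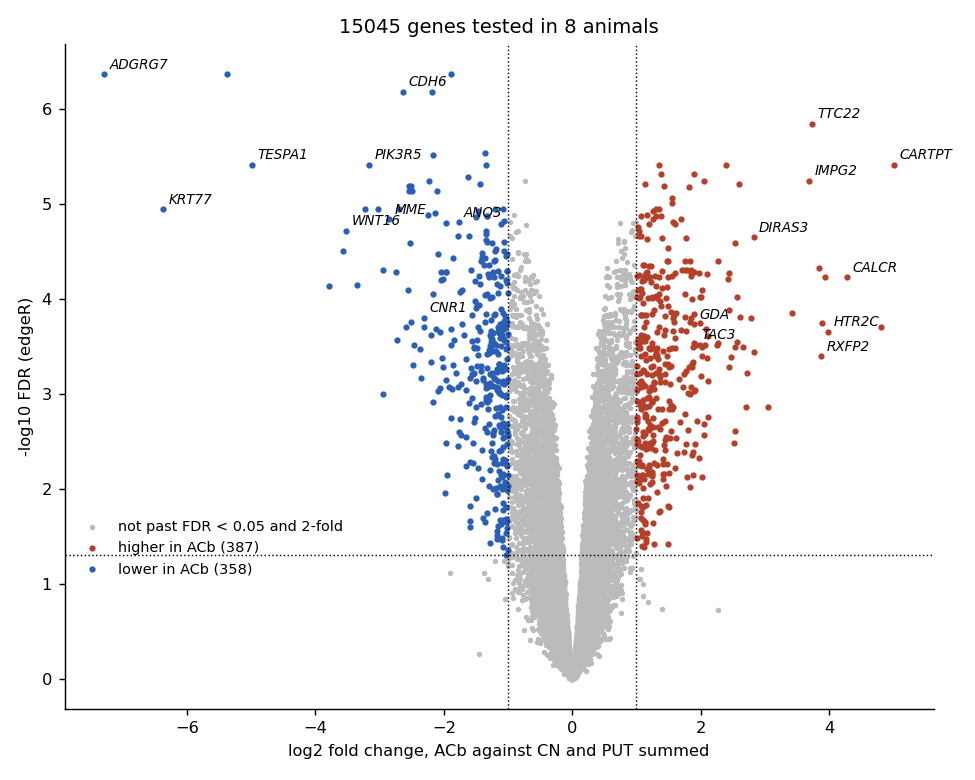
Log2 fold change of ACb against CN and PUT summed (x axis) and -log10 FDR of edgeR's test (y axis) for 15045 genes in 8 animals. The 387 genes in red were over 2-fold higher and the 358 in blue over 2-fold lower at FDR under 0.05 (dotted lines). ADGRG7 and KRT77 lay farthest to the left and CARTPT farthest to the right.

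The 15 genes with the largest increase, taken among genes with a symbol of their own, at least 1 CPM and the same direction against both dorsal regions in all 8 animals, included receptors, a peptide and genes of less known function. HTR2C, the serotonin 2C receptor, through which serotonin restrains dopamine release, had levels of 119.8, 162 and 311 CPM in ACb, 1.68, 24.99 and 98.6 CPM in CN and 0.223, 1.02 and 39.2 CPM in PUT. All 8 ACb libraries were above all 16 dorsal libraries, and the log2 difference was 3.98 ± 0.52 (FDR = 2.2e-04). The dorsal libraries were far from uniform: HTR2C reached 98.6 CPM in the CN of Rhesus 6 and 39.2 CPM in the PUT of Rhesus 4, where the other 7 PUT libraries had at most 1.87 CPM. Its ACb level ranked first of the 51 sub-regions. RXFP2, a receptor for the relaxin-family peptide INSL3, had a median of 2.85 CPM in ACb, from 1.29 to 10.1 CPM, and medians of 0.187 and 0 CPM in CN and PUT (3.88 ± 0.56, FDR = 4.0e-04). Rhesus 4 had 1.74 CPM of RXFP2 in ACb and 1.697 CPM in PUT, which is all but the same level. Its ACb mean also ranked first of the 51.

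CRH, corticotropin-releasing hormone, a stress peptide, had levels of 3.599, 6.48 and 9.52 CPM in ACb, 0.413, 1.07 and 5.76 CPM in CN and 0.0934, 0.461 and 0.9697 CPM in PUT (2.57 ± 0.30, FDR = 9.6e-05). The CN libraries of Rhesus 3 (4.26 CPM) and Rhesus 6 (5.76 CPM) overlapped the ACb range, and no PUT library did. DIRAS3, an imprinted RAS-like GTPase that restrains growth, was at 36.98 to 170.3 CPM in ACb, 9.39 to 52.4 CPM in CN and 1.56 to 18.9 CPM in PUT (2.82 ± 0.25). ZCCHC12, a zinc finger coactivator of BMP signalling, was at 54.3 to 339, 19.1 to 87.2 and 6.69 to 21.4 CPM in the same order (2.61 ± 0.32). For both genes the lowest ACb library was that of Rhesus 2, and their ranges in ACb and CN overlapped while those in ACb and PUT did not.

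IMPG2, a proteoglycan of the matrix around photoreceptors, was at 1.52 to 6.86 CPM in ACb and at most 1.204 CPM in any dorsal library (3.69 ± 0.26, FDR = 5.7e-06). TTC22, a tetratricopeptide repeat protein, was at 3.800 to 11.97 CPM in ACb and at most 1.72 CPM in the dorsal libraries (3.73 ± 0.20, FDR = 1.4e-06). In every PUT library TTC22 had at most 2 counts, so its contrast with PUT is not given. SYT10, a synaptotagmin that acts as a calcium sensor for secretion, had medians of 4.81, 1.25 and 0.3095 CPM in ACb, CN and PUT (2.73 ± 0.42). RTN4RL2, a relative of the Nogo receptor, had its highest values in the ACb of Rhesus 10 (20.9 CPM) and the PUT of Rhesus 3 (7.11 CPM), the ACb and the PUT library with the most SLC17A7. The difference of RTN4RL2 was 2.79 ± 0.35 in all 8 animals and 2.42 (FDR = 0.037) in the 4 animals without a library above 20 CPM of SLC17A7. The other members of the 15 were INSYN2B (2.83), MROH2A (2.66), RTL9 (2.59), a retrotransposon-derived gene, and CROCC2 (2.54). CROCC2 was at 9.43 to 21.9 CPM in ACb, 0.265 to 15.1 CPM in CN and 0 to 0.979 CPM in PUT.

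Among the 15 genes with the largest decrease, ADGRG7, an adhesion G protein-coupled receptor, was at 0 to 0.331 CPM in ACb, 0.258 to 28.4 CPM in CN and 6.98 to 40.5 CPM in PUT. Its log2 difference was -7.29 ± 0.32 (FDR = 4.3e-07), a value that depends on how the fit treats the counts near 0 in ACb. KRT77, a keratin, was at 0, 0.215 and 1.82 CPM in ACb, 0.278, 9.96 and 41.7 CPM in CN and 5.87, 60.2 and 257 CPM in PUT (-6.38 ± 0.50, FDR = 1.1e-05), with large differences between animals within each dorsal region. TESPA1, which was first described in T-cell receptor signalling, was at 0.608, 2.07 and 7.81 CPM in ACb, 5.72, 32.8 and 74.2 CPM in CN and 101, 159 and 207 CPM in PUT (-4.98 ± 0.32, FDR = 3.9e-06). No ACb library of TESPA1 reached the lowest PUT library, whereas ACb and CN overlapped.

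CDH6, a classical cadherin, had every ACb library below every dorsal library. It was at 4.96, 9.92 and 15.2 CPM in ACb, 29.6, 59.2 and 77.6 CPM in CN and 46.7, 71.02 and 93.1 CPM in PUT, and its difference of -2.64 ± 0.13 had an FDR of 6.6e-07. PIK3R5, a regulatory subunit of the PI3-kinase driven by G protein-coupled receptors, was at 2.23, 3.67 and 8.74 CPM in ACb, 12.8, 34.4 and 52.1 CPM in CN and 23.7, 50.1 and 71.5 CPM in PUT (-3.17 ± 0.20, FDR = 3.9e-06), also without overlap. AMBN (-2.74 ± 0.28), an enamel matrix protein, and LIPC (-2.56 ± 0.29), hepatic lipase, likewise had every ACb library below every dorsal library. MME, or neprilysin, a peptidase that degrades enkephalin and substance P, was at 8.31, 16.2 and 50.5 CPM in ACb, 35.4, 132 and 175 CPM in CN and 133, 153 and 222 CPM in PUT (-2.85 ± 0.23, FDR = 1.5e-05).

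Of ACb, CN and PUT, PUT had the highest mean for all 15 lower genes, WNT16, TMPRSS6, CNDP1, KIF24 and NEU4 among them. Over the 51 sub-regions the highest mean of CNDP1 was in the ventral tegmental area and that of NEU4 in the corpus callosum. WNT16, a secreted WNT ligand, was at 3.03 ± 1.98 CPM in ACb (mean ± SD, n = 8), 18.5 ± 11.8 CPM in CN and 52.3 ± 17.6 CPM in PUT (-3.52 ± 0.31). TMPRSS6, a serine protease that regulates hepcidin, was at 1.77 ± 1.18, 11.7 ± 9.34 and 35.2 ± 23.4 CPM (-3.57 ± 0.33). CNDP1, the carnosinase of the brain, was at 21.8 ± 13.99, 56.2 ± 19.6 and 215 ± 63.8 CPM (-2.700 ± 0.21), KIF24, a kinesin of the centriole, at 0.553 ± 0.206, 1.49 ± 0.552 and 8.26 ± 5.599 CPM (-2.95 ± 0.30), and NEU4, a sialidase, at 2.44 ± 0.918, 8.104 ± 3.67 and 21.7 ± 6.65 CPM (-2.54 ± 0.19). SPAG6 (-2.73), a protein of motile cilia, and the zinc finger gene ZNF385B (-2.51) completed the 15. For 6 of them, ADGRG7, KRT77, WNT16, PIK3R5, MME and AMBN, PUT and CN held ranks 1 and 2 among the 51 sub-regions, and for TMPRSS6 and CDH6 ranks 1 and 3.

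**Figure D3:**
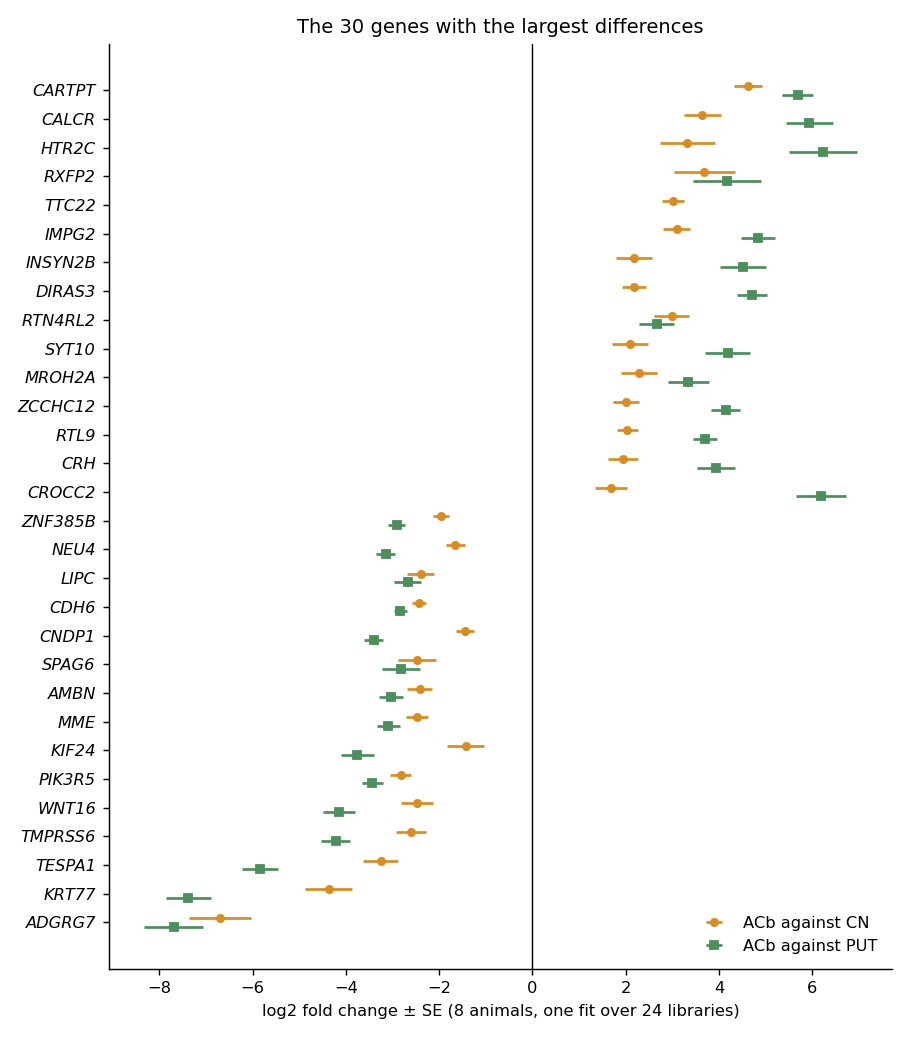
Log2 fold change ± SE of ACb against CN (circles) and against PUT (squares) for the 15 genes with the largest increase and the 15 with the largest decrease, from one fit over the 24 libraries of 8 animals. TTC22 has no point against PUT, where its counts were at most 2 a library. For the other higher genes except RTN4RL2 the fitted change was larger against PUT than against CN, and all 15 lower genes lay farther below PUT than below CN.

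Genes of medium spiny neuron signalling were lower in ACb. Of 24 genes on this list 16 could be tested, and 15 passed as lower and 0 as higher, with a median log2 fold change of -0.83. PPP1R1B, or DARPP-32, the phosphatase inhibitor through which dopamine receptors act on medium spiny neurons, was at 1176, 1365 and 1899 CPM in ACb, 1750.2, 2464 and 2856 CPM in CN and 2261, 2655 and 3154 CPM in PUT. It was lower in ACb than in CN and in PUT in all 8 animals (-0.802 ± 0.08, FDR = 4.7e-05). PDE10A, the striatal phosphodiesterase that degrades cAMP and cGMP, was at 19.6, 63.5 and 206 CPM in ACb, 142, 345 and 504 CPM in CN and 123, 368 and 725 CPM in PUT (-2.36 ± 0.33, FDR = 3.4e-04), and it was lower in all 8 animals although the ranges overlapped. ANO3, a membrane protein of the anoctamin family, was at 392 to 1067 CPM in ACb and at 1263 to 2349 and 1985 to 2646 CPM in CN and PUT, without overlap (-1.77 ± 0.15, FDR = 1.6e-05).

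The other large decreases on the list were those of STRN (-1.65 ± 0.28), a calmodulin-binding scaffold, and ADCY1 (-1.52 ± 0.28), an adenylyl cyclase stimulated by calcium. RGS9 (-0.94) and RGS14 (-0.93), which speed the return of G proteins to rest, PDE1B (-0.85), RASGRP2 (-0.86), PDE7B (-0.60) and ADCY5 (-0.47), the main adenylyl cyclase of the striatum, fell by less than 2-fold. KCNIP2 was at -0.105 ± 0.08 and did not pass. With the exception of STRN and ADCY1, ACb still held rank 3 of the 51 sub-regions for the members that passed, behind CN and PUT.

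Markers of the direct pathway were mostly lower in ACb, with 5 of 8 tested lower and 1 higher (median -0.74). DRD1, which raises cAMP on binding dopamine, was at 258, 301 and 401 CPM in ACb, 387, 501 and 602 CPM in CN and 392, 524 and 632 CPM in PUT (-0.701 ± 0.08, FDR = 1.1e-04). TAC1, the precursor of substance P, was at 254 to 469, 454 to 735 and 480.0 to 724 CPM (-0.78 ± 0.11), CHRM4, an inhibitory muscarinic receptor of direct-pathway neurons, at 16.7 to 35.9, 33.6 to 58.7 and 33.9 to 60.3 CPM (-0.91 ± 0.10), and both were lower in all 8 animals. EBF1 (-0.86 ± 0.17) and EYA1 (-1.68 ± 0.22), transcriptional regulators of development, were also lower. The exception was PDYN, which encodes prodynorphin. It was at 657, 712 and 1009 CPM in ACb, 435, 772 and 1077 CPM in CN and 53.1, 118 and 504 CPM in PUT, so that ACb and CN overlapped fully and all ACb libraries lay above all PUT libraries. Its difference of 0.68 ± 0.14 from the dorsal sum (FDR = 0.0028) stood beside 0.02 against CN and 2.46 against PUT. The highest PUT value of PDYN was that of Rhesus 4.

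Markers of the indirect pathway had 2 of 6 genes lower and 0 higher (median -0.19). DRD2, which lowers cAMP, was at 155, 195 and 279.6 CPM in ACb, 220.0, 259 and 367 CPM in CN and 240.5, 365 and 462 CPM in PUT (-0.66 ± 0.11, FDR = 8.8e-04), and GPR6, an orphan receptor that raises cAMP, was at -0.46 ± 0.09. PENK, the precursor of enkephalin, did not pass, with 1723 ± 432 CPM in ACb, 2226 ± 193 CPM in CN and 1167 ± 401 CPM in PUT (mean ± SD, n = 8). Its separate contrasts passed in opposite directions, at -0.396 against CN (FDR = 0.042) and 0.59 against PUT (FDR = 0.0025).

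The striosome and matrix compartments, the patches and surrounding tissue into which the striatum is divided, showed no shared direction. Of 9 striosome markers, 4 were higher and 3 lower, beside 18% and 17.4% of all genes. KCNIP1, a potassium channel subunit (0.599 ± 0.08), TSHZ1 (0.36 ± 0.08) and RASGRP1 (0.31 ± 0.08) were higher beside PDYN, and TAC1, KREMEN1 (-0.805 ± 0.25) and NR4A1 (-0.74 ± 0.21) were lower. Of 6 matrix markers, GDA and ID4 (0.42 ± 0.13) were higher than the dorsal sum and RASGRP2, EPHA4 (-0.56 ± 0.20) and STXBP6 were lower. With all libraries scaled together, the means of EPHA4 were 64.5, 113 and 58.2 CPM in ACb, CN and PUT, so ACb was below CN only. Those of ID4 were 129, 122 and 68.9 CPM. EPHA4 and ID4 each lost the call in most fits that left out 1 animal. GDA, guanine deaminase, was at 124, 189 and 278 CPM in ACb, 44.8, 106 and 124 CPM in CN and 0.359, 1.22 and 38.4 CPM in PUT (1.898 ± 0.24, FDR = 1.9e-04), with every ACb library above every dorsal one, and its highest PUT value belonged to Rhesus 4. STXBP6, or amisyn, which acts on the release machinery, was at 9.69, 12.1 and 35.5 CPM in ACb, 39.98, 64.3 and 83.6 CPM in CN and 29.98, 38.3 and 60.6 CPM in PUT (-1.96 ± 0.20, FDR = 5.2e-05).

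**Figure D4:**
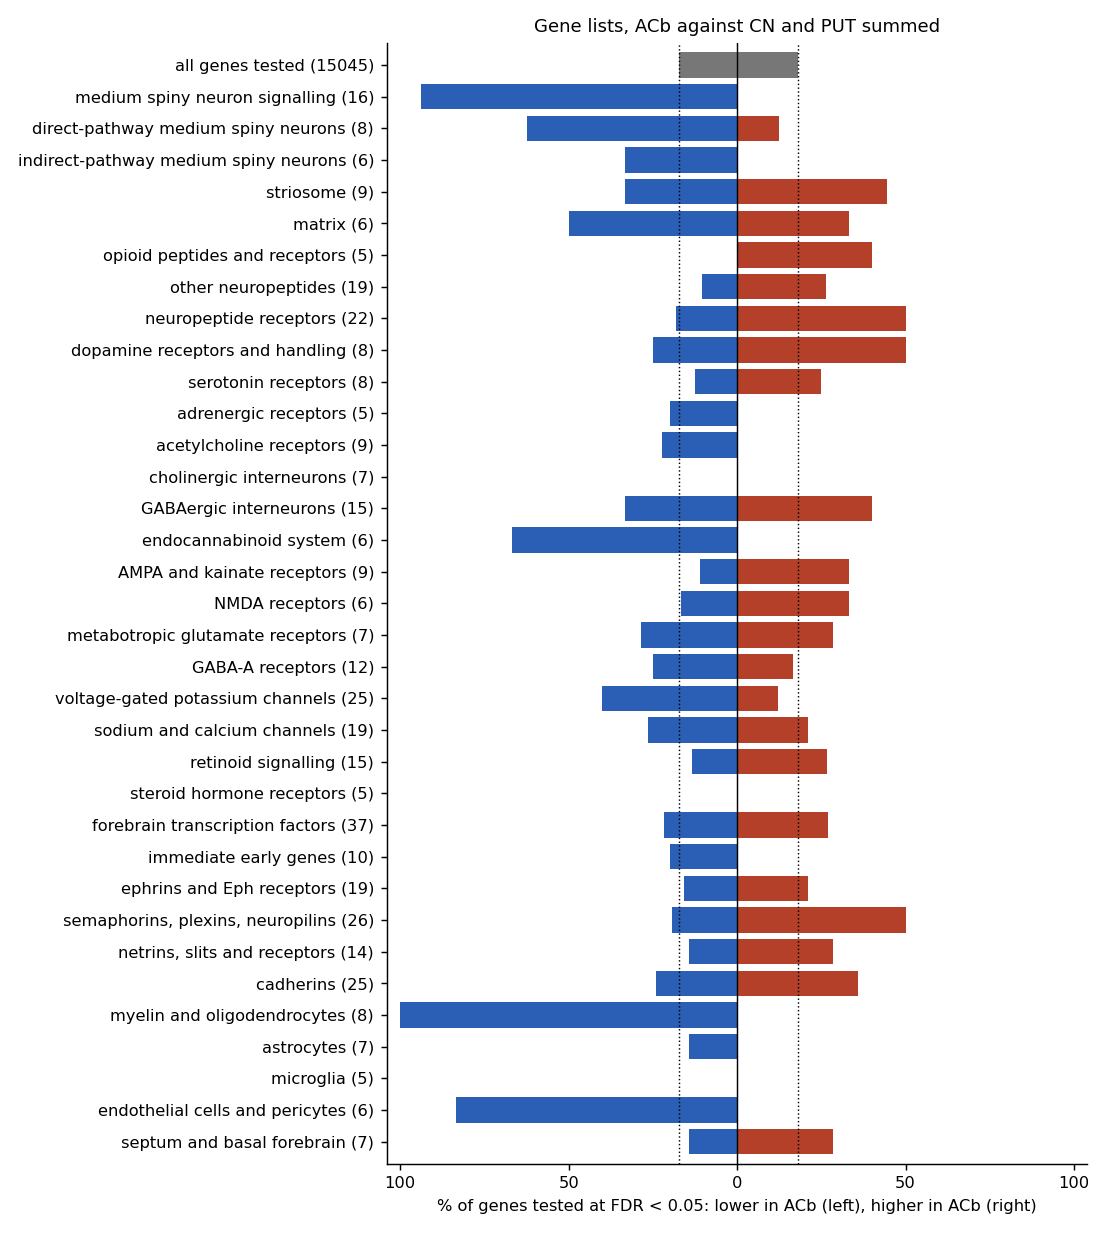
Share of the tested members of each gene list that passed at FDR under 0.05 as lower (left, blue) or higher (right, red) in ACb than in CN and PUT summed, with the number tested in parentheses and only lists with at least 5. Grey bars and dotted lines mark all 15045 genes (17.4% lower, 18% higher). All 8 myelin genes and 15 of 16 signalling genes of medium spiny neurons were lower, and 13 of 26 semaphorins, plexins and neuropilins and 11 of 22 neuropeptide receptors were higher.

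Of the neuropeptide genes, 5 of 19 tested passed as higher and 2 as lower (median 0.22), beside 18% and 17.4% of all genes. CARTPT and CRH, described above, were 2 of the 5. NTS, neurotensin, which modulates dopamine signalling, was at 0.7599, 6.36 and 11.1 CPM in ACb, 0, 1.66 and 6.73 CPM in CN and 0.1197, 0.703 and 1.44 CPM in PUT (2.06 ± 0.41, FDR = 0.0027). It was higher in ACb than in CN in 7 of 8 animals, with Rhesus 2 as the exception at 0.7599 CPM in ACb and 1.55 CPM in CN. SST, somatostatin, the peptide of a class of interneurons, was at 70.04, 122 and 242 CPM in ACb, 43.3, 64.6 and 127 CPM in CN and 48.3, 62.2 and 155 CPM in PUT (0.87 ± 0.14, FDR = 7.4e-04), and SCG2, the precursor of secretoneurin, was at 0.72 ± 0.10. VIP was lower (0.0858 to 2.53 CPM in ACb, 1.04 to 4.53 CPM in PUT, -1.79 ± 0.37), as was PTHLH, parathyroid hormone-related peptide, at 3.55, 7.02 and 10.6 CPM in ACb, 8.599, 12.5 and 18.2 CPM in CN and 19.8, 27.9 and 34.8 CPM in PUT (-1.49 ± 0.12, FDR = 1.4e-05). CCK did not pass at 1.39 ± 0.78 (FDR = 0.19), although it did without Rhesus 3, and its highest values were 32.1 CPM in the ACb of Rhesus 10 and 30.3 CPM in the PUT of Rhesus 3, the libraries with most SLC17A7.

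The tachykinin TAC3, neurokinin B, went the other way from TAC1. It was at 13.05, 31.97 and 82.9 CPM in ACb, 7.99, 11.9 and 16 CPM in CN and 3.18, 3.82 and 9.53 CPM in PUT (1.93 ± 0.27, FDR = 3.1e-04), with Rhesus 2 as the animal in which ACb (13.05 CPM) was below CN (16 CPM), and its ACb mean ranked first of 51 sub-regions. TACR1, the substance P receptor, which in the striatum is known from cholinergic and somatostatin interneurons, was lower, at 13.8, 20.2 and 32.5 CPM in ACb, 20.5, 28.3 and 38.95 CPM in CN and 44.96, 51.1 and 94.5 CPM in PUT (-1.07 ± 0.09, FDR = 1.5e-05). Of 5 opioid genes tested, PDYN and OPRL1 (0.58 ± 0.09), the nociceptin receptor, were higher, and PENK and the mu receptor OPRM1 (-0.48 ± 0.37) were among the 3 that did not pass.

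Among neuropeptide receptors 11 of 22 passed as higher and 4 as lower, beside 18% and 17.4% of all genes. Their median was 0.51 against -0.0031 over all genes. CALCR and RXFP2 led the list. NTSR1, the main receptor of neurotensin in neurons, was at 0.7599, 4.14 and 8.23 CPM in ACb, 0.177, 0.636 and 1.57 CPM in CN and 0, 0.109 and 0.539 CPM in PUT (3.43 ± 0.42, FDR = 1.4e-04). In Rhesus 2 the ACb value of 0.7599 CPM was below the CN value of 0.929 CPM, and in the other 7 animals ACb was above CN. NPY2R (1.51 ± 0.35) and NPY5R (0.603 ± 0.09), receptors of neuropeptide Y, and CCKBR (0.84 ± 0.11), the cholecystokinin B receptor, were higher. NPY5R was at 23.9 to 36.8 CPM in ACb against 19.1 to 24.6 CPM in CN and 11.02 to 24.4 CPM in PUT. VIPR1 was at 2.03 to 13.5 CPM in ACb and at most 3.27 CPM in the dorsal libraries (1.55 ± 0.28, FDR = 0.0014), with its highest value in the ACb of Rhesus 10, and in the 4 animals without a library above 20 CPM of SLC17A7 its difference was 1.16 (FDR = 0.058).

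ADCYAP1R1 (0.56 ± 0.08), the receptor of the peptide PACAP, KISS1R (0.51 ± 0.12), the kisspeptin receptor, SSTR4 (0.51 ± 0.18) and RXFP1 (0.49 ± 0.18) also passed as higher against the dorsal sum. With all libraries scaled together, the mean of SSTR4 was 3.80 CPM in ACb, 4.63 CPM in CN and 0.823 CPM in PUT, so ACb exceeded PUT only. SSTR4 and RXFP1 each lost the call in most fits that left out 1 animal. For KISS1R the contrast with CN was 0.08 (FDR = 0.78) and that with PUT was 1.24 (FDR = 7.5e-05), and ACb, CN and PUT held ranks 1 to 3 of the 51 sub-regions. The receptors that were lower were GPR37 (-1.43 ± 0.19), which is abundant in oligodendrocytes, GLP1R (-1.004 ± 0.35), the receptor of glucagon-like peptide 1, MCHR1 (-0.83 ± 0.19), for melanin-concentrating hormone, and HCRTR1 (-0.37 ± 0.10), for orexin. GLP1R and MCHR1 were lower in ACb than in CN in all 8 animals, and against PUT their values of -0.49 and 0.27 did not pass. GLP1R was low throughout, with means of 0.545, 1.27 and 0.733 CPM in ACb, CN and PUT, all libraries scaled together. It lost the call in most fits that left out 1 animal.

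Of 8 dopamine genes tested, 4 were higher and 2, DRD1 and DRD2, were lower, beside 18% and 17.4% of all genes. DRD3, the dopamine receptor best known from the ventral striatum, was at 32.3, 43.5 and 53.8 CPM in ACb, 24.5, 39.8 and 58.7 CPM in CN and 3.35, 5.27 and 27.3 CPM in PUT (0.76 ± 0.16, FDR = 0.0033). ACb and CN overlapped fully, with a contrast of 0.11 (FDR = 0.74), while every ACb library exceeded every PUT library (2.498, FDR = 2.3e-07). TH and DDC, the enzymes that make dopamine, which are abundant in midbrain dopamine neurons and scarce in the striatum, were at low levels in all regions. TH was at 0.253 to 3.55 CPM in ACb, 0 to 1.801 CPM in CN and 0 to 0.522 CPM in PUT (1.504 ± 0.42, FDR = 0.015), and DDC at 1.22 to 4.13, 0.619 to 1.81 and 0.0934 to 0.522 CPM (1.44 ± 0.23, FDR = 7.5e-04). MAOB, a monoamine oxidase of glia, was at 194, 226 and 244 CPM in ACb, 154, 191 and 211 CPM in CN and 56.2, 71.1 and 117 CPM in PUT (0.71 ± 0.06, FDR = 2.4e-05).

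Of 8 serotonin receptors, 2 were higher, HTR2C and HTR1D, and HTR5A was lower, beside 18% and 17.4% of all genes. Against CN, 2 were higher and 2 lower, beside 17.8% and 16.6% of all genes. Against PUT, 7 were higher and 1 was lower, beside 23% and 22.4% of all genes. HTR1D was at 5.67, 20.1 and 31.7 CPM in ACb, 6.05, 7.502 and 15.7 CPM in CN and 2.16, 3.71 and 14.4 CPM in PUT (1.25 ± 0.31, FDR = 0.0086), and ACb was above CN in 6 animals. HTR5A was at 9.52 to 19.6 CPM in ACb, 20.2 to 34.1 CPM in CN and 25.7 to 48.2 CPM in PUT, without overlap (-1.297 ± 0.14, FDR = 5.9e-05). HTR1B (0.59 ± 0.23) did not pass. Among 5 adrenergic receptors ADRA2C, an inhibitory receptor of medium spiny neurons, was lower (-0.94 ± 0.10, FDR = 7.1e-05).

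Among 9 acetylcholine receptors, CHRM4 and CHRM3 were lower and 0 were higher against the dorsal sum. Against CN, 4 were lower and 0 higher, beside 16.6% and 17.8% of all genes. Against PUT, 2 were lower and 3 higher, beside 22.4% and 23% of all genes. CHRM3, a muscarinic receptor that signals through calcium, was at 10.2, 22.1 and 34.3 CPM in ACb, 25.3, 39.9 and 47.6 CPM in CN and 71.4, 94.97 and 119 CPM in PUT (-1.52 ± 0.16, FDR = 6.5e-05). None of the 7 genes tested for cholinergic interneurons passed in either direction against the dorsal sum, among them CHAT (-0.29 ± 0.16), which makes acetylcholine, and its vesicular transporter SLC18A3 (-0.42 ± 0.24). At an unadjusted p of edgeR under 0.05 there was 1, ISL1 (0.42 ± 0.18, FDR = 0.089), which passed against the mean of CN and PUT (FDR = 0.012). In the separate contrasts 1 member of this list was higher than in CN, and against PUT 1 was higher, ISL1 (0.78, FDR = 0.0013), and 2 were lower, among them SLC18A3 (-1.06, FDR = 0.0023).

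Markers of GABAergic interneurons went both ways, with 6 of 15 higher and 5 lower, beside 18% and 17.4% of all genes. Set against CN, 4 were higher and 4 lower, beside 17.8% and 16.6% of all genes. Set against PUT, 6 were higher and 5 lower, beside 23% and 22.4% of all genes. PVALB, parvalbumin, of fast-spiking interneurons, was at 0.101, 0.892 and 1.44 CPM in ACb, 0, 0.341 and 0.908 CPM in CN and 3.79, 6.99 and 11.2 CPM in PUT (-2.09 ± 0.35, FDR = 9.4e-04). The PUT libraries stood apart from the other 16. The contrast of PVALB with CN was 1.08 (FDR = 0.089) and that with PUT was -3.12 (FDR = 6.1e-07). PTHLH, found in the same interneurons, was lower than in both regions, as given above. NOS1, nitric oxide synthase, was lower in all 8 animals against both regions (1.22 to 16.8, 12.2 to 35.8 and 3.99 to 39.4 CPM, -1.36 ± 0.26), whereas SST, which is expressed in the same class of interneurons, was higher and NPY was at 0.28 ± 0.13 and did not pass. CALB2, calretinin (1.18 ± 0.23), CHODL (0.58 ± 0.21) and LHX6 (0.44 ± 0.09) were higher. Of the enzymes that make GABA, GAD1 was higher in all 8 animals (0.59 ± 0.08, FDR = 3.3e-04) and GAD2 was lower (-0.304 ± 0.06, FDR = 0.0029).

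The endocannabinoid genes had 4 of 6 lower and 0 higher (median -0.40), beside 17.4% and 18% of all genes. CNR1, the cannabinoid receptor of axon terminals, was at 9.61, 19.3 and 48.8 CPM in ACb, 41.9, 70.1 and 114 CPM in CN and 64.00, 120.2 and 298 CPM in PUT (-2.31 ± 0.29, FDR = 1.6e-04). Rhesus 2 was the animal whose ACb (48.8 CPM) was not below its CN (48.2 CPM). MGLL, which breaks down the endocannabinoid 2-arachidonoylglycerol, was at 114 to 197 CPM in ACb and 202 to 286 and 213 to 357 CPM in CN and PUT, without overlap (-0.73 ± 0.11, FDR = 5.2e-04). ABHD6, another hydrolase of that lipid, was lower in all 8 animals (-0.51 ± 0.07). Over the 51 sub-regions the highest mean of ABHD6 was in the corpus callosum (106 CPM). That of CNR1 was in the cerebellar vermis and that of MGLL in the thalamus. The part of the myelin difference given below in ABHD6 was not tested.

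Receptors for glutamate and GABA had members in both directions, beside 18% of all genes higher and 17.4% lower. Of the AMPA and kainate receptors 3 of 9 were higher and 1 was lower. GRIA1 was at 412, 560.5 and 658 CPM in ACb, 337, 371 and 469.9 CPM in CN and 207, 261 and 386 CPM in PUT and was higher in all 8 animals against both regions (0.75 ± 0.09, FDR = 1.3e-04), and GRIA4 (0.65 ± 0.12) was higher as well, whereas GRIA3 (-0.57 ± 0.19) was lower. Among 6 NMDA receptor subunits GRIN3A (1.47 ± 0.33) and GRIN2D (0.698 ± 0.24) were higher and GRIN2A (-0.86 ± 0.24) was lower. The call of GRIN2D was lost in 7 of 8 fits that left out 1 animal, and Rhesus 2 had the opposite direction. GRIN3A was highest in the ACb of Rhesus 10 (31.02 CPM) and in the PUT of Rhesus 3 (13.6 CPM), and in the 4 animals without a library above 20 CPM of SLC17A7 its difference was 1.54 (FDR = 0.054). Of 7 metabotropic receptors tested, 2 were higher and 2 lower, with GRM7 (0.58 ± 0.10) and GRM2 (0.83 ± 0.29) higher and GRM3 (-0.66 ± 0.10) and GRM8 (-0.63 ± 0.12) lower. GRM7, GRM2, GRM3 and GRM8 did not pass in the same 4 animals, where GRM2 was at 0.579 (FDR = 0.37).

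Among 12 GABA-A receptor subunits 2 were higher and 3 lower. GABRA5, the subunit of extrasynaptic receptors that carry tonic inhibition, was at 478, 633 and 715 CPM in ACb, 373, 425 and 524 CPM in CN and 55.8, 73.2 and 307 CPM in PUT (1.17 ± 0.09, FDR = 1.3e-05). It was higher in ACb in all 8 animals. GABRA3 was higher (1.34 ± 0.26), and GABRA4 (-0.797 ± 0.17) and GABRB2 (-1.17 ± 0.38) were among the lower ones.

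Voltage-gated potassium channels had 10 of 25 genes lower and 3 higher (median -0.28), beside 17.4% and 18% of all genes. KCND2, which carries the fast transient current of dendrites, was at 12.9, 22.7 and 38.5 CPM in ACb, 36.8, 52.3 and 62.6 CPM in CN and 46.5, 60.1 and 85.9 CPM in PUT (-1.31 ± 0.14, FDR = 5.5e-05). KCNV1, a silent subunit, had every ACb library below every dorsal library (-1.36 ± 0.17, FDR = 1.8e-04). KCNC4, a channel of the Shaw family, had every ACb library above every dorsal library, at 11.4 to 21.9 CPM against 4.92 to 10.4 and 3.12 to 7.004 CPM (1.498 ± 0.15, FDR = 4.0e-05), and KCNA3 (1.299 ± 0.22) was higher too. Of 19 sodium and calcium channel genes 4 were higher and 5 lower, beside 18% and 17.4% of all genes. CACNA2D2, a calcium channel subunit (0.79 ± 0.13), was among the higher ones.

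Of 37 forebrain transcription factors 10 were higher and 8 lower (median 0.03), beside 18% and 17.4% of all genes. CRYM, a thyroid hormone-binding protein kept on this list for its use as a striatal marker, was at 455, 587 and 725 CPM in ACb, 347, 472 and 659 CPM in CN and 103, 143 and 473 CPM in PUT (0.82 ± 0.14, FDR = 9.0e-04) and ranked first in ACb. FOXP2 (0.69 ± 0.17), MEIS2 (0.303 ± 0.07), LMO4 (0.52 ± 0.12) and ZIC1 (0.62 ± 0.19) were higher, and FOXP1 (-0.68 ± 0.16), MEIS1 (-0.94 ± 0.13), LMO3 (-0.65 ± 0.16) and PROX1 (-1.17 ± 0.30) were lower. For FOXP2 the contrast with CN was 0.23 (FDR = 0.33) and that with PUT was 1.62 (FDR = 8.5e-07), and for MEIS1 they were -0.25 (FDR = 0.12) and -1.45 (FDR = 1.7e-08). Of 10 immediate early genes, which respond to activity, EGR2 (-1.15 ± 0.28) and NR4A1 were lower, beside 17.4% of all genes, and ARC (-0.59 ± 0.22) did not pass. Against CN, 4 of these genes were lower and 0 higher, beside 16.6% and 17.8% of all genes. Against PUT, 1 was lower and 2 were higher, beside 22.4% and 23% of all genes. Of 5 steroid hormone receptors and enzymes 0 passed in edgeR's test against the dorsal sum, and 2 had an unadjusted p under 0.05. Of the 4 also in the fit over 24 libraries, 3 were lower than in CN, beside 16.6% of all genes. Against PUT, 1 was higher and 0 were lower, beside 23% and 22.4% of all genes.

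Retinoid genes had 4 of 15 higher and 2 lower, beside 18% and 17.4% of all genes. The binding proteins CRABP1 (0.701 ± 0.13), CRABP2 (0.68 ± 0.19) and RBP4 (0.95 ± 0.11) were among the higher ones. CRABP2 did not pass with DESeq2 (FDR = 0.058). RXRG, the retinoid X receptor of the striatum, was lower at 56.8, 80.2 and 122 CPM in ACb, 61.3, 140.0 and 188 CPM in CN and 169, 209.7 and 232 CPM in PUT (-1.02 ± 0.11, FDR = 6.8e-05), as was ALDH1A1 (-0.94 ± 0.12), which makes retinoic acid. CRABP1 ranked first in ACb among the 51 sub-regions.

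Semaphorins and their receptors, the plexins and neuropilins, steer growing axons. Of 26 semaphorins, plexins and neuropilins, 13 were higher and 5 lower (median 0.16), beside 18% and 17.4% of all genes. Against CN, 8 were higher and 7 lower, beside 17.8% and 16.6% of all genes. Against PUT, 14 were higher and 6 lower, beside 23% and 22.4% of all genes. SEMA4G had every ACb library above every dorsal one (20.3 to 38.04 CPM against 11.8 to 18.2 and 7.11 to 12.8 CPM, 1.12 ± 0.12, FDR = 5.8e-05), and SEMA4A (1.03 ± 0.11) and PLXNA1 (1.12 ± 0.11) were higher in all 8 animals. NRP2, a semaphorin co-receptor, was at 74.9, 112 and 153 CPM in ACb, 56.6, 88.7 and 119 CPM in CN and 17.6, 25.6 and 56.8 CPM in PUT (0.92 ± 0.15) and ranked first in ACb. SEMA7A was lower at 3.34, 7.298 and 10.3 CPM in ACb, 5.61, 9.38 and 16.4 CPM in CN and 21.7, 50.9 and 67.04 CPM in PUT (-1.86 ± 0.18, FDR = 3.8e-05), with a contrast of -0.47 against CN and -2.65 against PUT. Of the netrins, slits and their receptors, 4 of 14 were higher and 2 lower, beside 18% and 17.4% of all genes. SLIT1, a repellent ligand, was higher at 21.7, 67.2 and 135 CPM in ACb, 10.8, 31.1 and 47.9 CPM in CN and 2.45, 7.04 and 10.9 CPM in PUT (1.85 ± 0.30, FDR = 8.5e-04), and its receptor ROBO2 was lower in all 8 animals (-1.07 ± 0.08, FDR = 1.1e-05) while ROBO1 was higher (0.52 ± 0.12).

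Among 25 cadherins 9 were higher and 6 lower, beside 18% and 17.4% of all genes. Against CN, 2 were higher and 7 lower, beside 17.8% and 16.6% of all genes. Against PUT, 15 were higher and 6 lower, beside 23% and 22.4% of all genes. Beside CDH6, CDH7 had every ACb library below every dorsal library (5.58 to 16.8 CPM against 19.3 to 31.2 and 17.4 to 34.3 CPM, -1.36 ± 0.16, FDR = 9.1e-05), and CDH8 (-0.88 ± 0.14) was lower. CDH9 was higher in all 8 animals, at 47.7, 64.9 and 81.3 CPM in ACb, 21.01, 36.8 and 49.4 CPM in CN and 9.58, 17.5 and 25.4 CPM in PUT (1.31 ± 0.15, FDR = 9.8e-05). CDH10 (0.59 ± 0.13) and PCDH11X (1.11 ± 0.38) passed as higher, with ACb above CN in 4 and 5 animals and above PUT in all 8. Ephrins and Eph receptors had 4 of 19 higher and 3 lower, near the 18% and 17.4% of all genes. EFNB3 (0.79 ± 0.08, FDR = 6.2e-05) was higher in all 8 animals and EPHB1 (-0.497 ± 0.09) was lower in all 8.

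Markers of other cell types moved with the regions too. All 8 myelin genes tested were lower in ACb than in the dorsal sum (median -1.25). MBP, myelin basic protein, was at 1089, 2359 and 3537 CPM in ACb, 1674, 2630.0 and 4316 CPM in CN and 6947, 9983 and 12898 CPM in PUT (-1.33 ± 0.20, FDR = 5.4e-04). Its contrast was -0.15 against CN (FDR = 0.55) and -2.004 against PUT (FDR = 6.8e-08). Against CN, 2 of the 8 genes were lower, CNP and UGT8, beside 16.6% of all genes, and against PUT 8 of 8 were lower, beside 22.4% of all genes. The summed level of the list was 2316 to 7427 CPM in ACb, 3603 to 8191 CPM in CN and 12739 to 21785 CPM in PUT. The part of this myelin difference in genes such as GPR37, CNDP1, NEU4 and SEMA7A was not tested.

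Of 6 endothelial and pericyte genes 5 were lower (median -0.46), among them RGS5 (-1.18 ± 0.18) and FLT1 (-0.74 ± 0.15), with summed levels of 131 to 200.2 CPM in ACb, 149.5 to 300.4 CPM in CN and 183 to 342 CPM in PUT. Of 4 ependymal genes, which mark the lining of the ventricle that the caudate borders, 3 were lower, with summed levels of 18.2 to 47.9, 32.9 to 102 and 28.6 to 53.6 CPM. FOXJ1, the master regulator of motile cilia, was at 0.507 to 3.59 CPM in ACb, 1.68 to 15.8 CPM in CN and 0.612 to 2.63 CPM in PUT. The part of these cells in SPAG6 was not tested. Of 7 astrocyte genes FGFR3 was lower (-0.46 ± 0.08) and 6 did not pass. In the separate contrasts 2 astrocyte genes were lower than in CN, and 2 were higher and 2 lower than in PUT. Of 5 microglia genes 0 passed in edgeR's test, and 0 had an unadjusted p under 0.05. Of 3 genes of oligodendrocyte precursors PDGFRA was higher (0.199 ± 0.05). Of 4 neurofilament genes, which are abundant in long axons, 3 were lower, NEFM the most (-1.03 ± 0.10).

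Genes of glutamatergic neurons of cortex and thalamus summed to 3.27 to 319 CPM in ACb, 1.69 to 5.38 CPM in CN and 3.83 to 160.4 CPM in PUT over the 7 genes with a symbol. The highest ACb sum was that of Rhesus 10 and the highest PUT sum that of Rhesus 3. Of the 2 that could be tested 0 passed, and SLC17A7 was at 2.28 ± 1.29 (FDR = 0.19), with an FDR of 0.039 once Rhesus 3 was left out. Hypothalamic markers summed to 5.84 to 14.4 CPM in ACb and 5.68 to 19.6 and 2.54 to 15.5 CPM in CN and PUT, with SIM1 at 0 in all 24 libraries, and 0 of 2 genes tested passed. Markers of the septum and basal forebrain, which border the accumbens, had LHX6 and ZIC1 higher and ZIC2 (-0.66 ± 0.19) lower of 7 tested, with summed levels of 48.3 to 98.3 CPM in ACb, 34.3 to 62.7 CPM in CN and 50.5 to 65.9 CPM in PUT. Of the choroid plexus genes KL (0.82 ± 0.17) and OTX2 (1.24 ± 0.29) were tested and higher, and the summed levels of the list were 9.499 to 34.95, 9.44 to 19.8 and 4.91 to 14.6 CPM.

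**Figure D5:**
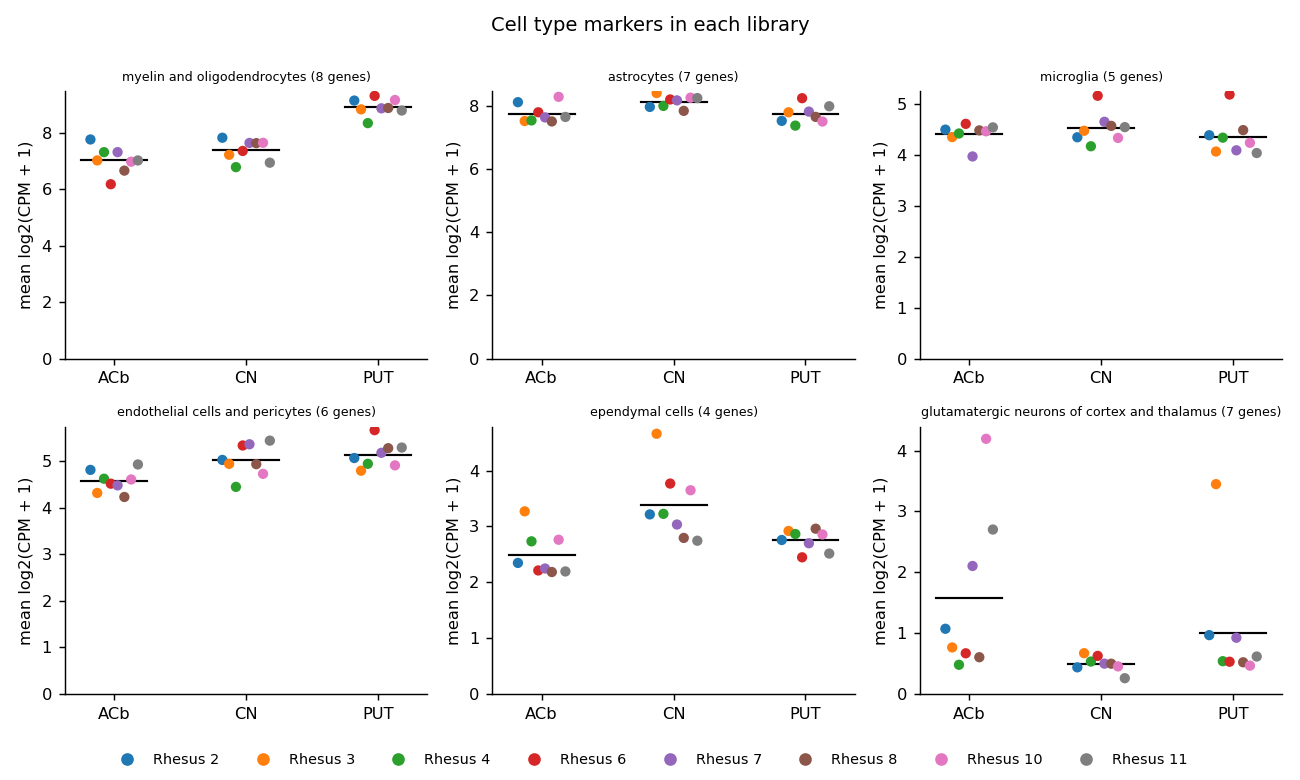
Mean log2(CPM + 1) of 6 marker lists in each of the 24 libraries (points, coloured by animal) with the mean of 8 libraries per region (line). Myelin markers were higher in PUT than in ACb and CN, and the cortical glutamatergic markers were raised in the ACb of Rhesus 7, Rhesus 10 and Rhesus 11 and in the PUT of Rhesus 3.

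The difference between ACb and the dorsal striatum was then compared between the 4 young animals (3.2 to 5 years) and the 4 mid-aged animals (9.8 to 10 years), and between the 4 males and 4 females, by the interaction of region with age stage or sex. Of 15740 genes, 0 passed for age stage and 0 for sex in edgeR's test (0% called), and 278 and 188 had an unadjusted p under 0.05. DESeq2 also called 0 for each, with 206 and 123 at an unadjusted p under 0.05. For CARTPT the ACb difference was -0.95 ± 0.60 log2 units in mid-aged minus young animals and -0.63 ± 0.64 in females minus males (interaction ± SE). For CALCR the same values were -0.61 ± 0.92 and 1.06 ± 0.88. None of the 4 passed. With 4 animals a side and adjustment over all genes tested, differences well above these SEs can go undetected.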

How the data were processed

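RNA was sequenced from dissected brain regions of 8 rhesus macaques. Per the labels and the study's methods, the authors trimmed libraries of poor read quality with Trim Galore 0.4.4, mapped reads with HISAT2 2.0.5 to the Mmul 8.0.1 assembly and deposited raw counts per Ensembl 91 gene made with HTSeq 0.6.1. Whether counting used strand, and how it treated overlapping genes, is not given in the sources used here, so values of genes that overlap, lie antisense or have a close copy are uncertain. A second deposited file, of assembled transcripts, was not used here.

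From the counts, ACb was fitted against CN plus PUT of the same animal in edgeR 4.0.16 (TMM, filterByExpr, quasi-likelihood F test, animal as block), with Benjamini-Hochberg adjustment over all genes tested, and the 3 regions were also fitted in 24 libraries. SE is the absolute log2 fold change over the square root of F. Libraries are paired because they come from the same animal, and the correlation of their deviations from the region means ran from 0.0908 to 0.695. Region labels grouped the samples. The study took 1 sample per region and animal, with no replication within an animal. Ranks among 51 sub-regions used libraries scaled over all 408. Total counts of 7842729 to 12153518 per library limit what can be said of genes near 1 CPM. The tests were checked on simulated data.

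Named genes were CARTPT and CALCR, the 15 largest changes in each direction (a symbol of 1 gene only, at least 1 CPM in the higher group, FDR under 0.05, same direction against CN and PUT in all 8 animals) and members of 44 lists with 564 symbols, of which 459 matched a gene. The members and lists were chosen with earlier results of these data known. Gene symbols came from a table of gene identifiers, and no sequences are shown. Alternatives were DESeq2 1.42.0, its size factors, a looser count filter, no animal block, leaving out each animal, CN or PUT alone, the mean of CN and PUT, and the 4 animals with no striatal library above 20 CPM of SLC17A7.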

Additional observations from a re-analysis of the deposited data

Results flagged for a closer look

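In each group of 8 values, the highest or lowest was set against its gap to the nearest of the others. Of 199 values tested 15 were far from the rest, and chance alone flags about 1 in 20 groups. For genes, the value is the difference of ACb from the mean of CN and PUT in 1 animal, in log2(CPM + 1).

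Rhesus 2 stood apart for 5 genes. Its CACNA2D2 difference was -0.0831, with the other 7 animals at 0.652 to 1.31. Its GRIN2D difference was -0.887 against 0.428 to 0.876. Its ZIC1 difference was -0.788 against 0.166 to 1.01. Its STXBP6 difference of -0.415 and its ZNF385B difference of -1.29 were the smallest decreases, with the others at or below -1.75 and -2.27.

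Rhesus 4 stood apart for 3 genes, with differences of -0.112 for GRM7 (median of the others 0.678), -0.146 for MEIS1 (median -0.988) and 0.0664 for SCG2 (median 0.880). The CHRM4 difference of Rhesus 6 was -0.231 (median of the others -0.922), the EBF1 difference of Rhesus 8 was -1.42 (median -0.469) and the VIPR1 difference of Rhesus 10 was 2.74 (median 0.796).

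Among marker lists, given as mean log2(CPM + 1) per library, microglia markers were at 3.97 in the ACb of Rhesus 7 (median of the others 4.49) and at 5.19 in the PUT of Rhesus 6 (median 4.24). Choroid plexus markers were at 1.05 in the ACb of Rhesus 2 (median 1.79), and markers of glutamatergic neurons of cortex and thalamus were at 3.45 in the PUT of Rhesus 3 (median 0.538).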

How the results depend on the processing

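Large changes of ACb against the dorsal sum numbered 387 higher and 358 lower. They numbered 388 and 384 with DESeq2, 537 and 509 with a looser count filter, 452 and 310 against the mean of CN and PUT, 384 and 302 with no replicate block, and 335 to 445 and 302 to 466 when each animal was left out in turn, always within 1.5 times. With CN alone in place of the sum 236 genes were higher and 316 lower, and with PUT alone 685 and 500. In an alternative chosen after seeing the data, only Rhesus 2, Rhesus 4, Rhesus 6 and Rhesus 8 were kept, since no striatal library of theirs held over 20 CPM of SLC17A7. It gave 151 higher and 137 lower genes, and 93 and 90 against CN and PUT separately, with fewer samples in the fit, and 94 of the 158 genes named in the text that had passed no longer did, although none turned its direction. Without each animal in turn, the separate counts of 211 and 151 ran from 174 to 271 and from 121 to 200.

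Leaving out 1 animal ended the call of 14 named genes in at least 1 case: CHODL, EPHA4, GABRB2, GLP1R, GRIA3, GRIN2A, GRIN2D, GRM2, ID4, KREMEN1, PCDH11X, RXFP1, SSTR4 and ZIC1. GRIN2D lost it in 7 of the 8 fits, CHODL, GRM2, RXFP1 and SSTR4 in 6, KREMEN1 in 4, GRIN2A in 1 (without Rhesus 11) and the others in 5. CCK and SLC17A7 passed without Rhesus 3, HTR1B without Rhesus 3, NPY without Rhesus 2 and ARC without Rhesus 3 or Rhesus 10. HTR1B and ARC also passed with DESeq2, and ARC with its size factors and with the looser filter. CRABP2 no longer passed with DESeq2 (FDR = 0.058), and RXFP1 no longer passed with its size factors in edgeR (FDR = 0.0506). With the looser filter CHODL, RXFP1 and SSTR4 lost the call. HTR1B, CCK, NPY, ISL1 and SLC17A7 passed against the mean of CN and PUT, where FOXJ1, MCHR1 and NR4A1 no longer passed. With no replicate block 15 named genes lost the call, none by a change of sign. PENK, which did not pass against the sum, turned from -0.03 to 0.098 against the mean of CN and PUT and ran from -0.105 to 0.065 when each animal was left out. The cause was not tested. Depth limits genes near 1 CPM, such as GLP1R in ACb, CN and PUT, and NTSR1 and RXFP2 in the dorsal striatum.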
